A study of Mus musculus with 4 samples.

Results

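The BCL2 family decides whether mitochondria release the proteins that start apoptosis, and 10 of its genes were followed here on arrays of mouse embryonic fibroblasts (MEFs) that differed in their Rb protein. Members were taken by gene symbol: the pro-survival genes Bcl2, Bcl2l1 and Mcl1, the effectors Bax and Bak1, and the BH3-only genes Bbc3, Pmaip1, Bcl2l11, Bid and Bad. The array carried 21 probes for these 10 genes among 45281 probes in all, and all 10 were among the 12616 genes analysed. A gene was analysed if a probe was detected on at least 1 of the 4 arrays, with a detection p-value below 0.01 set by the array's negative control probes. Of the 21 probes, 14 were detected on all 4 arrays, 18 on at least 1 and 3 on none.

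Each of 4 conditions was measured on 1 array, so no value has a replicate check and no test between conditions was possible. All cells were embryonic fibroblasts of the strain labelled FVB;129, grown in DMEM with 10% FBS, and the methods describe a conditional Rb allele in all of them. Parental MEFs, labelled No Cre, received a solution lacking TAT-Cre and then media alone. Rb-deleted MEFs, labelled Cre, received TAT-Cre, a recombinase fused to a peptide that carries it into cells, and media alone. WT Rb-HA MEFs, labelled Cre + WT, received TAT-Cre and a retrovirus with wild type RB. dCdk Rb-HA MEFs, labelled Cre + dCDK and called ΔCdk Rb-HA in the study, received TAT-Cre and a retrovirus with an RB mutant that lacks Cdk phosphorylation sites. Every treatment was given in 2 rounds of 1 h, 3 h apart. According to the methods, all 4 cultures were released from contact arrest and given a sub-lethal dose of doxorubicin before RNA isolation, which the labels do not mention. Only the arrays with exogenous Rb received virus, so infection and exogenous Rb cannot be told apart. Likewise only the parental array lacked TAT-Cre, so in ratios to parental TAT-Cre exposure and loss of endogenous Rb cannot be told apart.

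Pro-survival BCL2 proteins hold the effectors in check, and Bax and Bak, once freed or activated, assemble in the outer mitochondrial membrane and let cytochrome c out. BH3-only proteins carry a single BH3 helix with which they bind pro-survival proteins and, in some cases, the effectors themselves. In fibroblasts after DNA damage the p53 targets Bbc3, Pmaip1 and Bax are the best known links from damage to this switch. Rb enters the picture through E2F factors, which can transcribe several apoptotic genes when Rb no longer holds them.

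Array quality was similar throughout. Mean intensity ran from 336 to 346 array units, between 15950 and 16740 probes were detected per array, and a probe was read on a median of 44 beads. The Rb1 probe read 542.7 on the parental array and 160.5 to 180.9 on the other 3. It lies at base 4421 of the transcript, and whether the deleted stretch includes it is not given in the sources used here, so it does not itself check the deletion. All 10 fibroblast markers were detected on every array, 1 or 2 of 4 epithelial markers were detected per array, and the 4 endothelial markers were detected on none. Of 12 leukocyte markers 9 were detected on all arrays, with a summed intensity of 9360 on the parental array against 4470 to 5581 on the others, while Ptprc, the defining CD45 gene, was not detected on any. The ratios to parental share the parental array, and the part played in them by this leukocyte signal was not tested except where a value is given.

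Ratios are log2 differences of background-corrected, quantile-normalized intensity, with the bead standard error (SE) in brackets, which covers the spread of beads within an array and not the spread between cultures. A ratio was counted as past 1.6-fold, the filter used in the study, if it lay beyond 0.68 on this scale. In Rb-deleted against parental MEFs 0 of the 10 members passed 1.6-fold, where 5.12% of all genes did. In WT Rb-HA against parental MEFs 0 of 10 passed (all genes 3.34%). In dCdk Rb-HA against parental MEFs 1 of 10 passed, Bcl2l11, which was lower (all genes 5.87%). Among the 3 arrays that received TAT-Cre, 0 of 10 passed in WT Rb-HA against Rb-deleted MEFs (all genes 1.02%), in dCdk Rb-HA against Rb-deleted MEFs (4.26%) and in dCdk Rb-HA against WT Rb-HA MEFs (1.85%).

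**Figure D1:**
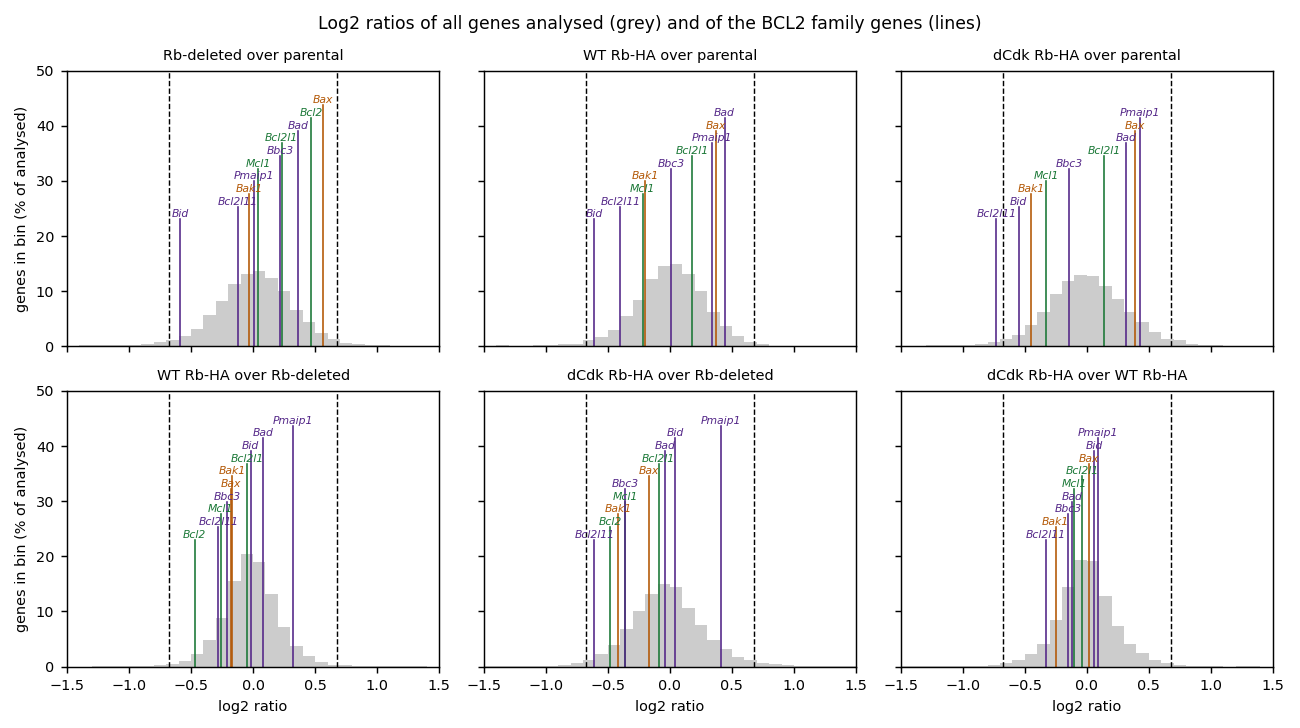
Histograms of the log2 ratio of all 12616 genes analysed (grey, percent of genes per bin of 0.1) in each of the 6 comparisons, with vertical lines at the ratios of pro-survival (green), effector (orange) and BH3-only (purple) genes; the height of a line only separates the names, dashed lines mark 1.6-fold, and Bcl2 is left out where neither array detected it. Bcl2l11 in dCdk Rb-HA over parental MEFs, at -0.73, is the single line outside the dashed lines.

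A smaller step, a ratio over 2 bead SE, was common for genes in general and for the members alike. Against the parental array 6 of 10 members passed it in Rb-deleted MEFs (all genes 51.2%), 6 of 10 in WT Rb-HA MEFs (46.8%) and 7 of 10 in dCdk Rb-HA MEFs (53.3%). Against Rb-deleted MEFs 6 of 10 passed it in WT Rb-HA MEFs (33.8%) and 6 of 10 in dCdk Rb-HA MEFs (48.3%), in both cases 5 lower and 1 higher. Between dCdk Rb-HA and WT Rb-HA MEFs 2 of 10 passed it (36.5%), Bbc3 and Bcl2l11, both lower in dCdk Rb-HA MEFs. With 10 genes, a difference of a few members from these shares carries no weight by itself. The counts against Rb-deleted MEFs also share that array. Bcl2 is among the members that passed in Rb-deleted against parental MEFs and among the 5 lower against Rb-deleted MEFs. Its probe was detected on the Rb-deleted array alone, so Bcl2 entered these counts only through the array where it was highest.

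**Figure D2:**
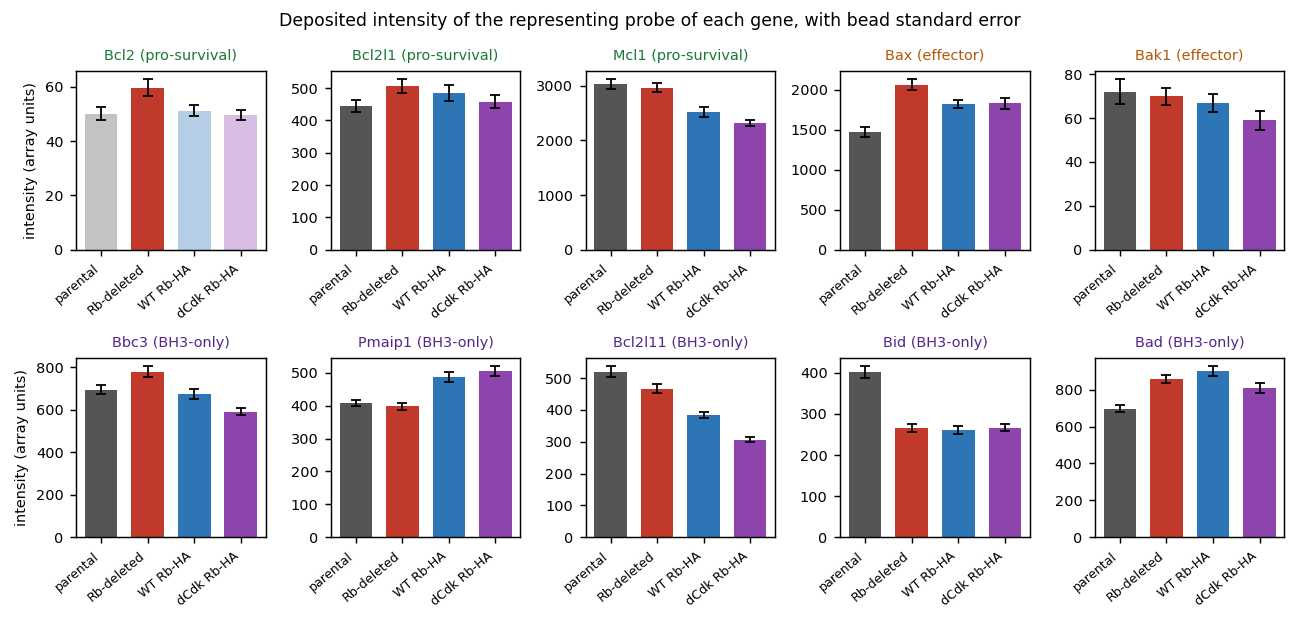
Deposited intensity (array units, linear axis from 0) of the probe that represents each gene on the 4 arrays, with 1 bar per array and error bars of 1 bead SE; pale bars mark arrays where the probe was not detected. Bid is high on the parental array alone, Bax is lowest there, and Bcl2l11 is lowest on the dCdk Rb-HA array.

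Among the pro-survival genes, Bcl2 was close to background. Bcl2, the founding member of the family (chr1:106538176-106714290, mouse build GRCm38.p6), was read by 2 probes on different transcripts. The probe at base 6757 gave 50.02 in parental, 59.75 in Rb-deleted, 51.15 in WT Rb-HA and 49.65 in dCdk Rb-HA MEFs, with a bead SE of 1.85 to 3.07. It was above the negative controls in Rb-deleted MEFs alone, where the signal was at least 1.11-fold higher than in parental, 1.10-fold than in WT Rb-HA and 1.16-fold than in dCdk Rb-HA MEFs. The probe at base 2007 read 51.99 to 54.98 and was detected on no array, so the higher Bcl2 signal rests on 1 dim probe.

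Bcl2l1 encodes Bcl-xL, a pro-survival protein of the mitochondrial membrane (chr2:152758732-152833803). All 3 of its probes were detected on all arrays, and they are shown because they did not give the same ratios. The first 2 lie in coding sequence, and capitals in the first mark the codons of the conserved core of the BH1 domain, part of the groove that binds BH3 helices. A short splice form, Bcl-xS, which promotes death, lacks the coding stretch that both of these probes read. The part of splice forms in the differing ratios was not tested. The last probe, at base 1261, is not open in any reading frame, and its first 30 bases are shown, all 5′ to 3′.
Bcl2l1 probe at base 571: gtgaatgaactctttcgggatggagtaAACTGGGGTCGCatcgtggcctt
Bcl2l1 probe at base 690: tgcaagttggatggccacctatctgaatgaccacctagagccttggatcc
Bcl2l1 probe at base 1261: tcccctgaaggagactagcttgccttggtt

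The brightest probe, at base 1261, read 444.3 in parental, 507.0 in Rb-deleted, 485.2 in WT Rb-HA and 458.6 in dCdk Rb-HA MEFs. Its ratios to parental were 0.23 (SE 0.09), 0.18 (0.11) and 0.14 (0.09), so that only the Rb-deleted array lay over 2 SE above parental. The probe at base 690 read 99.96, 118.9, 111.2 and 140.2 on the same arrays. It was highest in dCdk Rb-HA MEFs, where its ratio was 0.65 (0.13) to parental and 0.46 (0.12) to WT Rb-HA. The probe at base 571 read 108.3, 130.3, 110.4 and 136.5, and its ratio of dCdk Rb-HA to WT Rb-HA MEFs was 0.42 (0.18). Against Rb-deleted MEFs, dCdk Rb-HA MEFs gave 0.32 (0.13) by the probe at base 690 and 0.10 (0.18), within the bead error, by the probe at base 571. Both coding probes thus placed dCdk Rb-HA above WT Rb-HA MEFs by over 2 bead SE, whereas the probe at base 1261 gave -0.04 (0.10) for that comparison. The probes at bases 1261 and 690 differed by 0.50 on the log2 scale there (SE 0.16).

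Mcl1 encodes a short-lived pro-survival protein that Noxa and Bim bind (chr3:95656944-95663179). Its probe read 3027.8 in parental, 2966.0 in Rb-deleted, 2522.4 in WT Rb-HA and 2314.4 in dCdk Rb-HA MEFs, with a bead SE of 58.3 to 93.8. Parental and Rb-deleted arrays differed by 0.04 (0.06), within the bead error. Both arrays with exogenous Rb were lower, by -0.22 (0.07) and -0.33 (0.06) against parental and by -0.26 (0.07) and -0.36 (0.06) against Rb-deleted MEFs. Between themselves these 2 arrays differed by -0.10 (0.06). Of all genes, 14.8% were as low as Mcl1 in dCdk Rb-HA against parental MEFs.

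**Figure D3:**
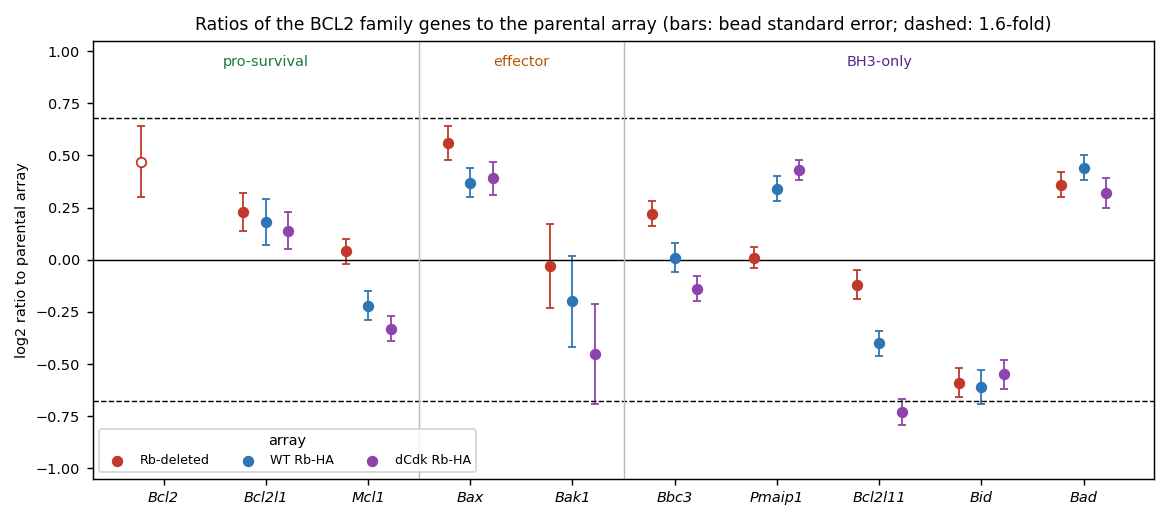
Log2 ratio to the parental array of the representing probe of each gene in Rb-deleted (red), WT Rb-HA (blue) and dCdk Rb-HA MEFs (purple), grouped by role, with bars of 1 bead SE and dashed lines at 1.6-fold; the open point marks Bcl2 in Rb-deleted MEFs, where the parental array did not detect it, and its other points are left out. Bax and Bad lie above 0 and Bid below 0 on all 3 arrays, and Bcl2l11 crosses the lower line in dCdk Rb-HA MEFs.

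The effectors Bax and Bak1 differed in behaviour. Bax (chr7:45461695-45466903) was read by 1 probe at base 554, in coding sequence for the end of the protein, where the helix that anchors Bax in the mitochondrial membrane is encoded. The whole probe is shown, 5′ to 3′, since the readout of Bax rests on it alone.
Bax probe at base 554: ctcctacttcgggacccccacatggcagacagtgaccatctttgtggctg

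Bax read 1470.2 in parental, 2060.2 in Rb-deleted, 1819.3 in WT Rb-HA and 1827.2 in dCdk Rb-HA MEFs, with a bead SE of 53.9 to 70.2. The parental array was the lowest and the Rb-deleted array the highest. Rb-deleted MEFs stood at 0.56 (0.08) over parental, which is 1.47-fold, and 4.19% of all genes were as high. It was 0.37 (0.07) in WT Rb-HA and 0.39 (0.08) in dCdk Rb-HA MEFs, and 8.60% and 11.2% of genes were as high there. WT Rb-HA and dCdk Rb-HA MEFs were below Rb-deleted MEFs by -0.18 (0.07) and -0.17 (0.08), and differed from each other by 0.02 (0.07). Over 8 alternative settings the ratio in Rb-deleted MEFs stayed between 0.49 and 0.56. Those that changed only the filter on dim probes or the probe per gene could not move it, since Bax has 1 probe.

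Bak1, the other effector (chr17:27019812-27028627), was dim. Its intensity was 72.04 in parental, 70.01 in Rb-deleted, 66.90 in WT Rb-HA and 58.92 in dCdk Rb-HA MEFs, with a bead SE of 3.87 to 5.65. The arrays ran in that order, but no pair differed by over 2 bead SE. The widest ratio, -0.45 (0.24) in dCdk Rb-HA against parental MEFs, shrank to -0.24 under one of the alternative settings. A change of Bak1 was not detectable at this signal.

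The BH3-only genes moved apart from each other. Bid, which death receptors switch on through cleavage by caspase 8 (chr6:120893119-120917062), was lower than parental by a like amount on all arrays that received TAT-Cre. The first 30 bases of its detected probe are given, 5′ to 3′, because the other Bid probe, at base 2186, was at background on every array (40.19 to 50.27).
Bid probe at base 1615: tgtgctgaactttgcttaaagctgggatcg

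Bid read 401.8 in parental, 265.8 in Rb-deleted, 261.3 in WT Rb-HA and 267.0 in dCdk Rb-HA MEFs, with a bead SE of 7.83 to 14.0. The parental array stood above the other 3, which lay within 0.06 of each other on the log2 scale. Ratios to parental were -0.59 (0.07), -0.61 (0.08) and -0.55 (0.07), or 1.46-fold to 1.52-fold lower. Of all genes, 4.19%, 3.21% and 5.22% were as low. The 3 ratios share the parental array and are not independent of each other. The summed leukocyte markers were also highest on that array, and their part in the Bid ratio was not tested.

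Bad, a BH3-only protein that survival kinases inactivate by phosphorylation (chr19:6941861-6951905), went the opposite way. It read 696.6 in parental, 858.5 in Rb-deleted, 901.6 in WT Rb-HA and 809.0 in dCdk Rb-HA MEFs, with a bead SE of 19.3 to 27.8. Every array that received TAT-Cre was above parental, with ratios of 0.36 (0.06), 0.44 (0.06) and 0.32 (0.07). Among these arrays no pair differed by over 2 bead SE. Of all genes, 12.4%, 5.31% and 15.0% were as high as Bad.

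Bcl2l11 encodes Bim, a BH3-only protein that binds all pro-survival members and is transcribed by FoxO factors (chr2:128126038-128162547). It had the widest range over the arrays among the members detected on all 4, 0.732 on the log2 scale. It was read by 4 probes, and the first 30 bases of the 3 detected on every array are shown, 5′ to 3′, since their ratios differed. The array's annotation lists the probe at base 4582 as reading all isoforms, and the probe at base 3727 belongs to another transcript record than these others.
Bcl2l11 probe at base 4582: tgattcagcctggtgcctgtgtgtgtccat
Bcl2l11 probe at base 3727: ctgctttggcttctggcattcagtgcttgg
Bcl2l11 probe at base 545: gtgacaagtcaacacaaaccccaagtcctc

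The probe at base 4582 read 520.1 in parental, 466.4 in Rb-deleted, 384.6 in WT Rb-HA and 306.4 in dCdk Rb-HA MEFs, with a bead SE of 8.56 to 16.7. The arrays were ordered parental, Rb-deleted, WT Rb-HA, dCdk Rb-HA, and the first step, -0.12 (0.07), was within 2 bead SE. dCdk Rb-HA MEFs were lower than parental by -0.73 (0.06), a 1.66-fold difference, lower than Rb-deleted by -0.61 (0.07) and lower than WT Rb-HA by -0.33 (0.06). WT Rb-HA MEFs were lower than Rb-deleted MEFs by -0.28 (0.06). In dCdk Rb-HA against parental MEFs 2.73% of all genes were as low.

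A second probe, at base 3727, ran in the same order with smaller steps of -0.03 (0.13), -0.15 (0.12) and -0.24 (0.13), each within 2 bead SE. It read 222.2, 213.8, 195.0 and 165.0, and its ratio of dCdk Rb-HA to parental MEFs was -0.42 (0.14). The dim probe at base 545 did not keep the order. It read 83.05, 68.57, 88.56 and 73.58, so WT Rb-HA MEFs were highest and Rb-deleted MEFs lowest. All 3 placed dCdk Rb-HA below WT Rb-HA MEFs, by -0.33 (0.06), -0.24 (0.13) and -0.34 (0.15), the second within 2 bead SE. All 3 also placed it below parental MEFs, though at base 545 the ratio, -0.23 (0.13), was within 2 bead SE. The isoform probe at base 422 was detected in dCdk Rb-HA MEFs alone, at 60.55 (bead SE 3.54). Its ratio went the other way, 0.34 (0.20) to parental, within 2 bead SE, and 0.62 (0.17) to WT Rb-HA MEFs. Against the lowest detected signal on those 2 arrays it was only 1.11-fold and 1.10-fold higher. Taking the mean of all 4 probes, the one at base 422 included, in place of the brightest moved the ratio of dCdk Rb-HA to parental MEFs to -0.26, under 1.6-fold.

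**Figure D4:**
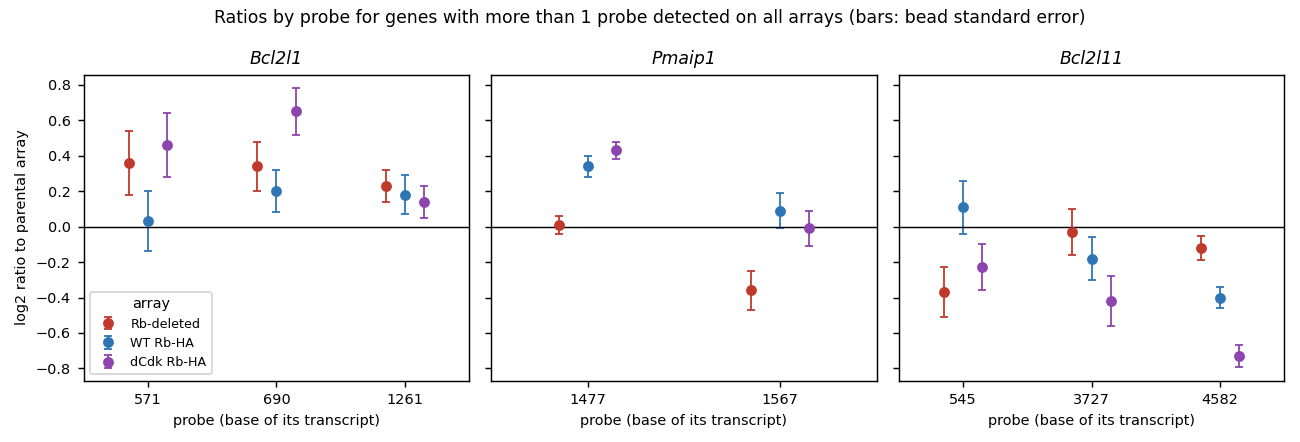
Log2 ratio to the parental array for each probe detected on all arrays, by its base in the transcript, for Bcl2l1, Pmaip1 and Bcl2l11, with bars of 1 bead SE and colours for Rb-deleted (red), WT Rb-HA (blue) and dCdk Rb-HA MEFs (purple). In Bcl2l1 the purple points lie highest at bases 571 and 690 and lowest at base 1261, and in Bcl2l11 the purple points are below 0 at all 3 probes.

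The 3 genes detected on all arrays whose centred profile over the 4 arrays lay nearest to that of Bcl2l11, by Euclidean distance among 10836 genes, were Atp8b1, a phospholipid flippase (distance 0.022), the class I gene H2-Q7 (0.060) and A430110N23Rik (0.062). Their ratios of dCdk Rb-HA to parental MEFs were -0.73, -0.77 and -0.68, beside -0.73 for Bcl2l11. With 4 points per profile, near neighbours among so many genes are a description only.

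Bbc3 encodes Puma, a p53 target that binds all pro-survival proteins (chr7:16308398-16318334). The probe at base 1650 read 693.4 in parental, 776.9 in Rb-deleted, 673.2 in WT Rb-HA and 590.3 in dCdk Rb-HA MEFs, with a bead SE of 15.5 to 25.7. Rb-deleted MEFs were highest, at 0.22 (0.06) over parental, and WT Rb-HA MEFs differed from parental by 0.01 (0.07). By this probe dCdk Rb-HA MEFs were lowest, at -0.14 (0.06) to parental, -0.36 (0.06) to Rb-deleted and -0.15 (0.06) to WT Rb-HA. The other 2 probes, at bases 1503 and 1508, share 46 of their 50 bases and stayed between 52.68 and 64.28, near background. Their first 30 bases are shown 5′ to 3′ with the shared bases in capitals, since this overlap makes them close to 1 measurement.
Bbc3 probe at base 1503: acgtGTGACCACTGGCATTCATTTGGGGGG
Bbc3 probe at base 1508: GTGACCACTGGCATTCATTTGGGGGGTGGG

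In spite of the overlap, the first was detected on the parental and Rb-deleted arrays and the second on the other 3 arrays but not on the parental one. Neither thus adds a usable ratio for every comparison. In dCdk Rb-HA against parental MEFs they gave -0.20 (0.17) and 0.40 (0.19), with 1 array of the pair not detecting the probe. The second gave -0.11 (0.20) to Rb-deleted and 0.05 (0.18) to WT Rb-HA MEFs, both within 2 bead SE. With the mean of detected probes, Bbc3 in dCdk Rb-HA MEFs stood at 0.02 to parental, -0.23 to Rb-deleted and -0.04 to WT Rb-HA.

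Pmaip1 encodes Noxa, a p53 target that binds Mcl1, and lies on chromosome 18. Its brightest probe, at base 1477, read 407.9 in parental, 397.9 in Rb-deleted, 488.5 in WT Rb-HA and 505.8 in dCdk Rb-HA MEFs, with a bead SE of 8.54 to 14.8. The arrays formed a lower pair without exogenous Rb, differing by 0.01 (0.05), and a higher pair with it, differing by 0.09 (0.07). Ratios to Rb-deleted MEFs were 0.32 (0.07) for WT Rb-HA and 0.41 (0.06) for dCdk Rb-HA MEFs. The probe at base 1567 gave like ratios to Rb-deleted MEFs, 0.45 (0.10) and 0.35 (0.10). It did not place the parental array with the lower pair, since it read 239.1, 187.6, 246.5 and 228.4. Ratios to parental by that probe were -0.36 (0.11), 0.09 (0.10) and -0.01 (0.10). The higher signal with exogenous Rb was thus common to both probes against Rb-deleted MEFs and not against parental MEFs. The last probe, at base 2608, was at background on every array.

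By role, the classes were compared by their medians and signs. In Rb-deleted against parental MEFs the median ratio was 0.23 for the 3 pro-survival genes, 0.26 for the 2 effectors and 0.01 for the 5 BH3-only genes, which ran from -0.59 for Bid to 0.36 for Bad. In WT Rb-HA MEFs the medians were 0.00, 0.09 and 0.01, and in dCdk Rb-HA MEFs they were -0.02, -0.03 and -0.14. Over all 10 members the median was 0.13, 0.00 and -0.08 on these arrays, where all genes had 0.02, 0.01 and -0.01. The median absolute ratio was 0.23, 0.28 and 0.36 for the members and 0.20, 0.18 and 0.21 for all genes. Against Rb-deleted MEFs the medians of the members were -0.17 in WT Rb-HA and -0.27 in dCdk Rb-HA MEFs, with 8 of 10 below 0 in each, beside -0.02 and -0.03 for all genes, of which 53.7% and 54.4% were below 0. The -0.27 became -0.13 under looser filters on dim probes and -0.15 with the mean of probes. By their representing probes, all 3 pro-survival genes (medians -0.26 and -0.36) and both effectors (-0.17 and -0.29) were below 0 in these 2 comparisons. The 5 BH3-only genes had 3 below and 2 above 0 in each (medians -0.02 and -0.04). Both comparisons share the Rb-deleted array and are not independent, and with 10 genes such counts carry no weight by themselves. Bcl2 enters these medians and counts although it was detected in Rb-deleted MEFs alone. The signs depend in part on the probe. In dCdk Rb-HA against Rb-deleted MEFs Bcl2l1 was above 0 at base 690, 0.32 (0.13), and at base 571, 0.10 (0.18). Both of these probes were below 0 in WT Rb-HA against Rb-deleted MEFs. The other Bcl2 probe, detected on no array, gave 0.05 in WT Rb-HA and 0.09 in dCdk Rb-HA MEFs. Bak1 was within 2 bead SE in both comparisons.

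Ratios of genes with opposing roles can be set against each other within the arrays. Bax less Mcl1, as a difference of their ratios to parental, was 0.52 (0.10) in Rb-deleted, 0.59 (0.10) in WT Rb-HA and 0.71 (0.10) in dCdk Rb-HA MEFs. In Rb-deleted MEFs it came from Bax, and in the other 2 from higher Bax and lower Mcl1. Bax less Bcl2l1 was 0.32 (0.12), 0.19 (0.13) and 0.25 (0.12) by the Bcl2l1 probe at base 1261. With the other Bcl2l1 probes, tried after the data were seen, the value in dCdk Rb-HA MEFs turned to -0.26 (0.16) at base 690 and -0.07 (0.20) at base 571, so it has no settled direction there. Pmaip1 less Mcl1, the Noxa gene against its binding partner, was -0.02 (0.08) in Rb-deleted, 0.56 (0.09) in WT Rb-HA and 0.75 (0.08) in dCdk Rb-HA MEFs by the Pmaip1 probe at base 1477. By the probe at base 1567, also tried later, it was -0.40 (0.13), 0.31 (0.12) and 0.32 (0.12). These differences show unequal change of transcripts on 1 array each and are no measure of the proteins.

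Other genes of the pathway came from 4 lists with 48 genes, of which 34 were analysed. Of these, 1 was past 1.6-fold higher and 3 lower in Rb-deleted, 0 and 2 in WT Rb-HA, and 2 and 3 in dCdk Rb-HA MEFs, all against parental. Together these were 11.8%, 5.88% and 14.7% of the 34, beside 5.12%, 3.34% and 5.87% of all genes. No gene of the 34 passed in WT Rb-HA against Rb-deleted MEFs (all genes 1.02%), dCdk Rb-HA against Rb-deleted MEFs (4.26%) or dCdk Rb-HA against WT Rb-HA MEFs (1.85%). The 2 that were lower on all 3 arrays were pro-survival BCL2 relatives of the A1 group, which blood cells express. Bcl2a1b read 334.9 in parental MEFs and 116.7, 102.2 and 98.68 in Rb-deleted, WT Rb-HA and dCdk Rb-HA MEFs, with ratios of -1.69, -1.97 and -2.0. Bcl2a1d read 382.2, 104.7, 98.46 and 87.95, with ratios of -2.10, -2.25 and -2.44. Near-identical copies of A1 lie side by side in the mouse genome, so the probes may read each other's transcripts and the 2 values may be 1 signal. Leukocyte markers moved the same way, with 9, 9 and 8 of the 9 detected markers below parental and median ratios of -0.94, -1.08 and -0.90, and their part in the A1 ratios was not tested. No member differed from parental by as much as either A1 gene.

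**Figure D5:**
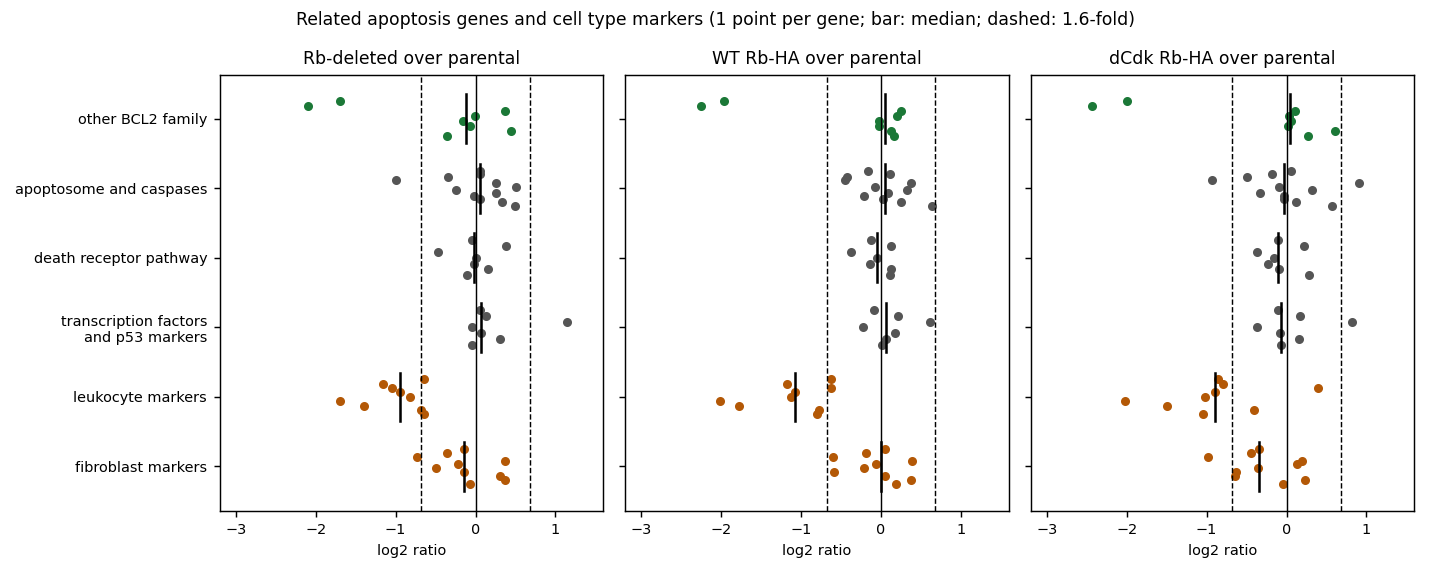
Log2 ratio to the parental array of each analysed gene in 4 lists of related apoptosis genes (other BCL2 family genes in green, the rest in grey) and in the leukocyte and fibroblast marker lists (orange), with 1 point per gene, a bar at the list's median and dashed lines at 1.6-fold. The 2 A1 genes are the green points left of -1.6 on every panel, beside the leukocyte markers, whose medians lie between -1.08 and -0.90.

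Of the other BCL2 relatives, Bok, an effector-like protein, had ratios of 0.44, 0.12 and 0.61 to parental, and the remaining 5 analysed lay within 0.37 of parental in either direction. Downstream of mitochondria, Apaf1 and Cycs, which form the apoptosome, gave 0.05 and 0.05 in Rb-deleted, 0.11 and 0.02 in WT Rb-HA, and -0.18 and -0.03 in dCdk Rb-HA MEFs. Other genes of that list moved more, in both directions and under 1.6-fold. On the same arrays Casp2 gave 0.50, -0.07 and -0.09, and Htra2 gave 0.49, 0.64 and 0.57. Casp6 gave -0.24, 0.32 and 0.32, and Birc2 gave -0.35, -0.43 and -0.49. The survivin gene Birc5, a mitotic gene as well as a caspase inhibitor, read 236.8, 272.5, 291.5 and 400.4 and was 0.91 over parental in dCdk Rb-HA MEFs. The caspase inhibitor gene Birc3 read 78.17, 50.20, 64.58 and 51.85 and was detected on 2 of the arrays, so that it counts among those past 1.6-fold through arrays on which its level was not detected. None of the 7 analysed death receptor genes passed 1.6-fold, and Fas, the death receptor itself, gave -0.47, -0.37 and -0.37.

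Of transcription factors that act on members, E2f1 was the one past 1.6-fold, with ratios of 1.15 in Rb-deleted, 0.61 in WT Rb-HA and 0.82 in dCdk Rb-HA MEFs. Trp53 itself gave -0.05, 0.01 and -0.07. Foxo1, which acts on Bcl2l11, gave -0.05 (0.09) in Rb-deleted, -0.23 (0.09) in WT Rb-HA and -0.37 (0.10) in dCdk Rb-HA MEFs. Foxo3, which also acts on it, gave 0.07 (0.09), 0.17 (0.09) and -0.08 (0.11). Their part in the Bcl2l11 ratios was not tested. The p53 targets Cdkn1a and Mdm2 gave 0.06 and 0.30 in Rb-deleted MEFs, beside 0.56 for Bax, 0.22 for Bbc3 and 0.01 for Pmaip1.

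Since Rb acts through E2F, the RefSeq promoter windows of the members were searched on both strands for the E2F motif in the forms TTTCCCGC, TTTCGCGC, TTTGCCGC and TTTGGCGC, from 250 bases before to 50 bases after each transcript start (GRCm38.p6). Of 15 windows found for 9 members 1 held it, and of all 32851 windows 744 did (2.26%). The match lay in the middle one of the Bcl2l1 windows, at -145 from that start. It is shown with its surroundings on the strand of the gene (chr2:152830844-152830873, minus strand), with the match, a reverse complement of TTTCGCGC, in capitals.
Bcl2l1 promoter, 30 bases: tccgcgtccctGCGCGAAAccttgagattc

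A match of letters is no evidence of binding, and the absence of these forms says nothing of E2F at the other members. In Rb-deleted against parental MEFs Bcl2l1 had 0.23 (0.09) by its brightest probe.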

How the data were processed

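Total RNA of 4 cultures, 1 per condition as the labels name it, was hybridized to 4 sections of an Illumina mouse BeadChip. The authors deposited, per the file headers, the average bead intensity of each probe, linear and not normalized across arrays, its bead standard error, the bead count and a detection p-value. The detection p-values deposited rise in steps of 1 in 936 and rank a probe among negative controls. Genome positions in the table were not used, since they mix builds. Gene coordinates and promoters are from RefSeq tables of GRCm38.p6.

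Background was corrected with limma (version 3.58.1, R 4.3.3) by normexp with an offset of 16. Arrays were then quantile normalized together, and log2 was taken after that. Genes needed a probe with a detection p below 0.01 on at least 1 array, and the probe with the highest mean stood for its gene. All 10 members and every probe of theirs were named. Of the related lists any gene past 1.6-fold was named, as well as a few others chosen after their values were seen. Bead standard errors were carried through each array's own mapping and combined over a ratio. Where 1 array of a pair did not detect a probe, the fold is a lower bound against the lowest detected signal on that array. This bound leaves out the bead error. Member probes were read on 25 to 70 beads (median 42). The calculation was tested on simulated data. Python 3.11.15 with numpy 2.4.6 and pandas 2.3.3 was used for the rest. The members and lists were chosen with earlier results of these data known. A gene of the related lists is not reported here.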

Additional observations from a re-analysis of the deposited data

How the results depend on the processing

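Alternatives changed the background correction, the offset, the normalization, the filter on dim probes, the probe per gene and the fold threshold. Of 474 gene ratios recomputed, 437 moved by less than their bead error and 37 by more. Many of the 437 could not move. The filters on dim probes left every analysed member but Bcl2 on the same probe, and the mean of probes cannot change a gene with 1 probe. Of 66 counts of members past a fold 60 were unchanged within 1.5 times. In dCdk Rb-HA against parental MEFs 0 members passed with an offset of 50, with the mean of detected probes and at 2-fold, against 1 as reported. At 1.5-fold the count rose from 0 to 1 in Rb-deleted against parental, in WT Rb-HA against parental (both Bid) and in dCdk Rb-HA against Rb-deleted MEFs (Bcl2l11). The median of the members in dCdk Rb-HA against Rb-deleted MEFs was -0.20 with an offset of 50, -0.13 with detection below 0.05 or no filter, -0.17 with detection on all 4 arrays and -0.15 with the mean of probes, against -0.27. In Rb-deleted against parental MEFs it was 0.03 with detection below 0.05 or no filter and 0.04 with detection on all 4 arrays, against 0.13. In dCdk Rb-HA against parental MEFs it was 0.00 with the mean of probes, against -0.08. The cause was not tested, but under the looser filters the other Bcl2 probe stood for that gene, and under detection on all 4 arrays Bcl2 dropped out. With the mean of probes the ratio of Bcl2l1 in dCdk Rb-HA against WT Rb-HA MEFs turned from -0.04 to 0.28. No paired analysis was possible because each condition has 1 array. Signal over background limits Bcl2, Bak1 and the dim probes of Bbc3, and 1 culture per condition limits every ratio.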
